A study of Mus musculus with 6 samples.

Results

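Eph receptors of the B class and the ephrin-B ligands that bind them were followed in the RNA of cultured mouse astrocytes that overexpress JAG1. The members were the 8 genes of this family, taken by gene symbol and not by any measured value: the receptors EPHB1, EPHB2, EPHB3, EPHB4 and EPHB6 and the ligands EFNB1, EFNB2 and EFNB3, as the tables spell them, or Ephb1 to Efnb3 in mouse spelling. All 8 had a row among the 23282 gene rows, and 7 had enough reads to be tested. The study sequenced RNA from 6 libraries of 1 brain-derived cell line, Ink4a -/- murine astrocytes in the labels and Ink4a/Arf-/- in the study's text, which lack this tumor suppressor locus in both groups and grew in medium with fetal bovine serum. The 3 control libraries came from cells given the empty plasmid pcDNA3.1-puro, and the labels call their genotype WT although the line is the same. The 3 JAG1-overexpressing libraries came from cells given pcDNA3.1-JAG1-puro. The sources used here do not say if each library had its own transfected culture. The p-values set the group difference against the spread between these libraries, which may be technical. If the libraries of a group share a culture, an effect of JAG1 and a difference between the cultures cannot be told apart.

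EphB receptors are tyrosine kinases in the cell membrane, and ephrin-B ligands are themselves transmembrane proteins on neighboring cells. On contact, signals run into both cells, forward through the receptor kinase and in reverse through the tail of the ligand. This exchange is known for steering axons, sorting cells into compartments and setting the boundary between arteries and veins, and in astrocytes it has been studied in cell contact and in the response to injury. Efnb2 is known as a gene that NOTCH signaling can raise in endothelial cells.

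The libraries held between 14341634 and 20489062 reads counted on genes. Counts are given as TMM-normalized CPM, which is the usual count per gene relative to library size, with library sizes scaled by the TMM method. The 3' end method used reads each transcript once near its end, so a CPM value can be compared between genes without division by length. Jag1, the gene carried by the plasmid, was at 8.99, 10.8 and 11.2 CPM in the control libraries and at 15.2, 13.6 and 13.8 CPM in the JAG1-overexpressing ones. It was 0.46 higher on the log2 scale in the latter (adjusted p = 0.00446, edgeR). Counts per gene cannot tell plasmid from cellular RNA, and whether this row counts any plasmid RNA is not given in the sources used here. Of the 11 astrocyte markers listed, Gfap, Aqp4, Slc1a2, Slc1a3 and Fabp7 had at most 3 reads in every library, and 5 of the 6 tested were lower in JAG1-overexpressing cells, beside 27.7% of all tested genes. The summed level of the 11 markers, most of it from Vim, ran from 3265 to 3750 CPM in control and from 3342 to 3407 CPM in JAG1-overexpressing libraries. The 6 endothelial markers together stayed at or under 0.322 CPM in each library, with Cdh5, Kdr, Tek, Cldn5 and Vwf at no more than 3 reads. The 6 oligodendrocyte markers summed to at most 1.19 CPM in a library, with Mbp, Mog, Olig1, Olig2 and Sox10 at no more than 3 reads. The 6 markers of neurons, 3 of them tested with 1 higher and 2 lower, summed to between 100.3 and 109.9 CPM in control and between 58.6 and 61.7 CPM in JAG1-overexpressing libraries, with Rbfox3, Snap25 and Syt1 at no more than 3 reads. The 6 of fibroblasts and pericytes, 4 of them tested with 1 higher and 3 lower, summed to between 323 and 325 CPM and between 214 and 257 CPM, with Lum and Rgs5 at no more than 3 reads. The 6 of microglia summed to between 0.938 and 1.52 CPM and between 1.59 and 2.34 CPM, with 1 tested and higher, and Aif1, Itgam and P2ry12 at no more than 3 reads. Beside all these marker counts, 27.4% of all tested genes were higher and 27.7% lower. The part of these marker levels in the results was not tested.

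No member of the family rose. Of the 7 tested, the receptors Ephb2, Ephb3 and Ephb6 and the ligand Efnb1 fell, each by more than 2-fold, and Ephb4, Efnb2 and Efnb3 did not pass the test. Among all 11712 tested genes, 27.7% were lower at the same threshold, an adjusted p of 0.05, 27.4% were higher, and 8.49% were lower by at least 2-fold. In 4 of the 7 tested members, the same that fell, every JAG1-overexpressing library lay below every control library, beside 30.9% of all tested genes. The median log2 fold change of the 7 tested members was −1.35, beside 0.0039 for all tested genes. In these bulk libraries, fewer cells that express a gene and less RNA per cell cannot be told apart.

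**Figure D1:**
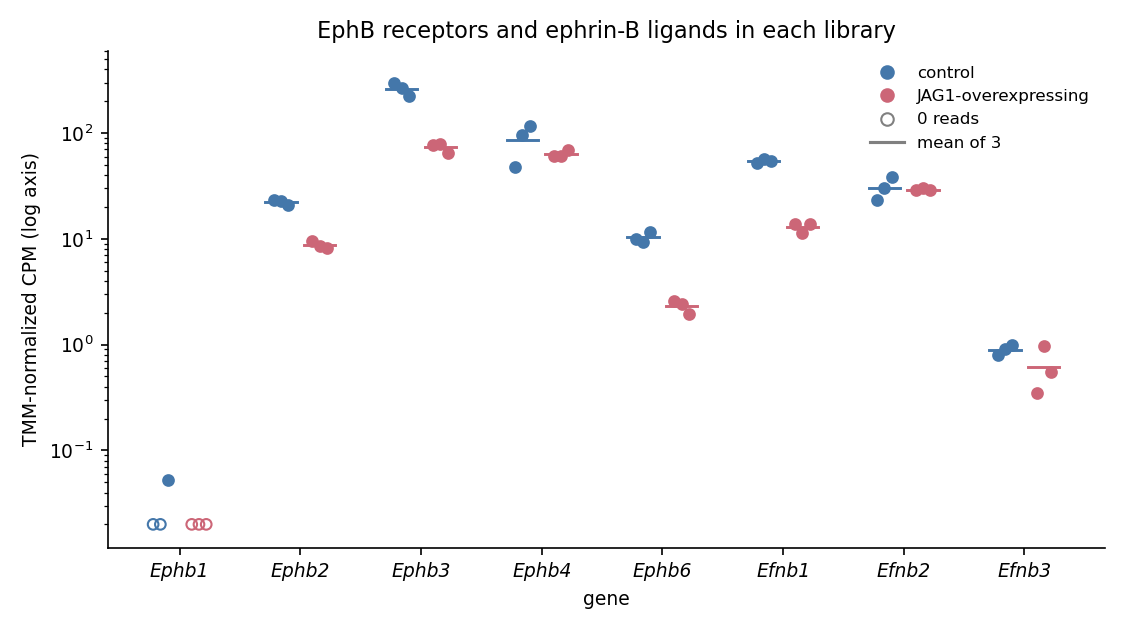
Level of each gene in each of the 6 libraries, as TMM-normalized CPM on a log axis, with control libraries in blue, JAG1-overexpressing libraries in red, open circles for 0 reads and a line at the mean of 3 libraries. The groups are apart for Ephb2, Ephb3, Ephb6 and Efnb1, with all JAG1-overexpressing libraries lower, and overlap for the others.

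Ephb3, a receptor known for placing cells along the intestinal crypt and for guiding axons across the midline, was the most abundant member in control astrocytes. It lies on chromosome 16 (GRCm38, chr16:21204755-21223305, plus strand). Its level was 299.9, 264 and 226 CPM in the control libraries and 77.1, 78.4 and 65.0 CPM in the JAG1-overexpressing libraries. Even the lowest control library was far above the highest JAG1-overexpressing one. The log2 fold change was −1.84 (standard error, SE, 0.10, adjusted p = 6.52e-08, edgeR), a 3.58-fold fall.

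Ephb2, a receptor that acts in axon guidance and at synapses, lies on chromosome 4 (chr4:136647539-136835988, minus strand). Its level was 23.2, 22.9 and 20.8 CPM in control and 9.47, 8.53 and 8.20 CPM in JAG1-overexpressing libraries, without overlap and with little spread in either group. The log2 fold change was −1.35 (SE 0.10, adjusted p = 5.41e-07), so that Ephb2 was 2.54-fold lower.

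Ephb6 differs from the other receptors in that its kinase domain is inactive, and it signals by pairing with other receptors. It lies on chromosome 6 (chr6:41605482-41620509, plus strand). It was read 203, 175 and 223 times in the control and 52, 35 and 32 times in the JAG1-overexpressing libraries, or 10.0, 9.40 and 11.7 CPM against 2.59, 2.41 and 1.94 CPM. All JAG1-overexpressing libraries lay below all control libraries. Its log2 fold change of −2.15 (SE 0.16, adjusted p = 6.17e-07) was a 4.45-fold fall, and 94.5% of all tested genes changed by as much or less in either direction. It was the largest estimate of the family but within its error of that of Efnb1, and the order of the pair turned without control replicate 3 (−2.065 for Ephb6 and −2.073 for Efnb1) and without JAG1-overexpressing replicate 3 (−2.04 for Ephb6 and −2.10 for Efnb1).

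Ephb4, the receptor that pairs with ephrin-B2 at the border of veins and arteries, lies on chromosome 5 (chr5:137350109-137378669, plus strand). Its control libraries were spread widely, at 48.0, 95.6 and 117 CPM, and the JAG1-overexpressing libraries, at 60.9, 60.6 and 69.7 CPM, fell inside that range. Control replicate 1 was below all JAG1-overexpressing libraries and the other two control libraries were above them. The log2 fold change was −0.45 (95% interval −0.97 to 0.07, adjusted p = 0.131, edgeR), which leaves room for a fall of nearly 2-fold. Without control replicate 1 it was −0.74 with an adjusted p of 7.54e-07, so that it passed the test. Zan is annotated on the opposite strand in the last 1000 bases of Ephb4, and whether the counting used the strand is not given in the sources used here, but Zan had at most 11 reads in a library.

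Ephb1, a receptor of axon guidance in the visual system, lies on chromosome 9 (chr9:101922128-102354693, minus strand) and had a single read in the whole study, in control replicate 3. A count of 3 reads was taken as the limit of detection, which is 0.148 CPM in the deepest and 0.206 CPM in the shallowest library. Ephb1 was under that limit in all 6 libraries, a limit that covers counting error only, and it was not tested.

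Among the ligands, Efnb1, which is X-linked and known for cell sorting at boundaries of the developing face and skull, also fell. It lies at chrX:99136130-99148991 on the plus strand. Its level was 52.3, 57.2 and 54.2 CPM in control and 14.0, 11.3 and 13.7 CPM in JAG1-overexpressing libraries. The control libraries were close to each other and all far above the others. The log2 fold change was −2.06 (SE 0.09, adjusted p = 1.07e-08), a 4.18-fold fall.

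Efnb2, the ligand that marks arteries, lies on chromosome 8 (chr8:8617434-8661242, minus strand). It had 23.4, 30.0 and 38.3 CPM in control and 28.7, 30.0 and 28.7 CPM in JAG1-overexpressing libraries. The JAG1-overexpressing libraries were nearly equal and sat in the middle of the control range. The log2 fold change was −0.07 (95% interval −0.38 to 0.25, adjusted p = 0.704, edgeR), so the interval leaves out a change as large as that of Efnb1. As with Ephb4, control replicate 1 was the lowest and control replicate 3 the highest control library.

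Efnb3, a ligand known for keeping axons from crossing the midline, lies on chromosome 11 (chr11:69554092-69560205, minus strand) and was scarce. It had 16, 17 and 19 reads in control and 7, 14 and 9 reads in JAG1-overexpressing libraries, with overlap between the groups once depth was scaled. The log2 fold change was −0.59 with a wide 95% interval of −1.46 to 0.28 (adjusted p = 0.227, edgeR), which holds a fall as large as that of Ephb2. At this depth no difference in Efnb3 was detectable.

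**Figure D2:**
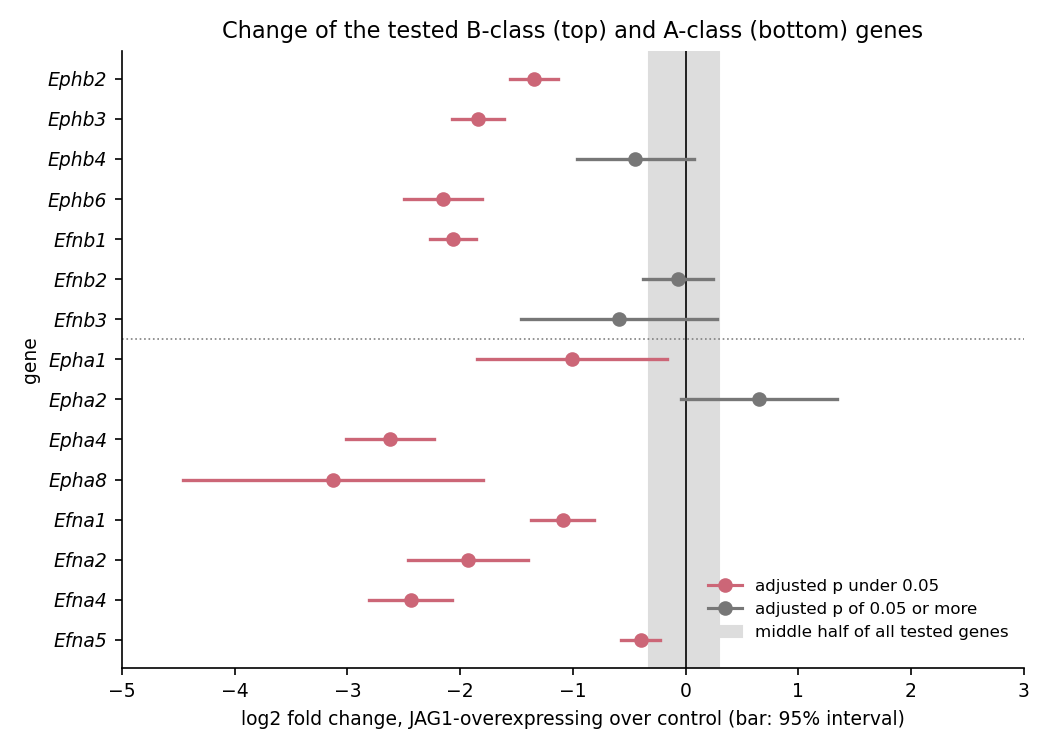
Log2 fold change of JAG1-overexpressing over control astrocytes for the 7 tested genes of the B class (above the dotted line) and the 8 of the A class (below it), with 95% intervals, red where the adjusted p was under 0.05, and the interquartile range of all tested genes in gray. The B-class falls range from −1.35 for Ephb2 to −2.15 for Ephb6, and the interval of Efnb2 lies around 0.

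The order of the genes by level was described within each group. In control astrocytes it ran from Ephb3 through Ephb4, Efnb1, Efnb2, Ephb2, Ephb6 and Efnb3 to Ephb1, and Ephb4 and Efnb1 were the only neighbors whose libraries overlapped. In JAG1-overexpressing astrocytes Efnb2 stood above Efnb1, and Ephb3 at 73.5 ± 7.37 CPM (SD, n = 3) and Ephb4 at 63.7 ± 5.16 CPM (SD, n = 3) were the only neighbors that overlapped. The lower places kept the same order in both groups.

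The fall of the abundant genes changed the makeup of the family. EphB receptors summed to 383 ± 8.56 CPM in control libraries, against 148 ± 2.97 CPM with JAG1 overexpression (SD, n = 3 each). Ephrin-B ligands summed to 86.0 ± 8.71 CPM, against 42.7 ± 0.425 CPM (SD, n = 3 each). The receptor sum stayed between 375 and 392 CPM across the control libraries although Ephb3 and Ephb4 each varied widely there. Ephb3 was highest where Ephb4 was lowest, in control replicate 1.

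Ephb3 made up 68.7% ± 9.35 (SD, n = 3) of the receptor sum in control and 49.5% ± 4.03 in JAG1-overexpressing libraries, while Ephb4 made up 22.7% ± 9.41 and 43.0% ± 4.39. Reads of Ephb3 per read of Ephb4, a ratio that does not depend on library scaling, were 6.24, 2.76 and 1.93 in control and 1.27, 1.29 and 0.933 in JAG1-overexpressing libraries. The ratio was lower in all JAG1-overexpressing libraries than in any control library. The share of Ephb2 in the receptor sum was close in the groups, at 5.82% ± 0.264 and 5.89% ± 0.368.

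The ligands changed places. Efnb1 made up 63.8% ± 5.29 (SD, n = 3) of the ligand sum in control and 30.4% ± 3.18 in JAG1-overexpressing libraries, and Efnb2 35.2% ± 5.27 and 68.2% ± 2.46. Reads of Efnb1 per read of Efnb2 were 2.23, 1.91 and 1.42 in control and 0.487, 0.376 and 0.478 in JAG1-overexpressing libraries. Efnb1 was thus the main ligand transcript in every control library and Efnb2 in every JAG1-overexpressing library. These ratios were chosen after the values were seen and carry no test.

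**Figure D3:**
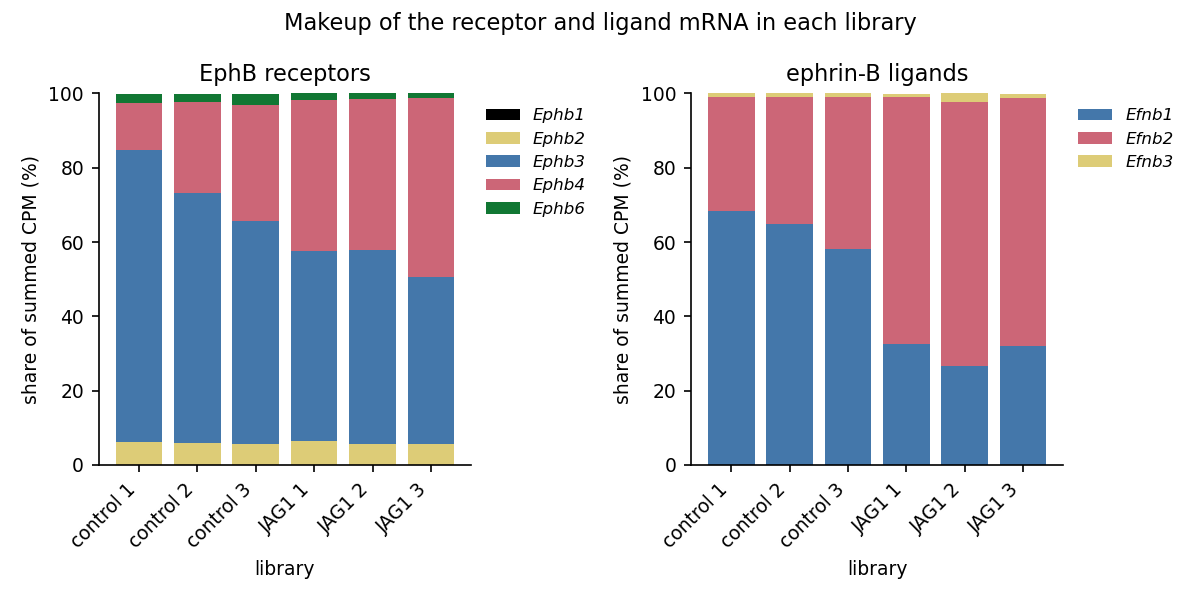
Share of each gene in the summed CPM of the EphB receptors (left) and of the ephrin-B ligands (right), in percent, with a bar for each library. From control to JAG1-overexpressing libraries Ephb4 (red, left) takes a mean share of 43.0% in place of 22.7%, and Efnb2 (red, right) 68.2% in place of 35.2%.

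Sequences just upstream of the RefSeq starts (GRCm38.p6) are shown for the pair of ligands and the pair of receptors that parted in this way, since in each pair one gene fell and the other did not pass the test. Each is 250 bases, 5′ to 3′ on the strand of the gene, ending at the base before the start, and capitals mark TGGGAA, the core letters bound by RBPJ, the DNA-binding partner of NOTCH. The positions are chrX:99135811-99136060 for Efnb1, chr8:8661243-8661492 for Efnb2, chr16:21204545-21204794 for Ephb3 and chr5:137349859-137350108 for Ephb4. The gene positions given above are from GENCODE. Their starts differ from the RefSeq starts for Ephb3 and Efnb1, and also for Ephb2 and Ephb6, whose windows are not shown. By those positions the windows of Ephb3 and Ephb6 run into the gene, and those of Efnb1 and Ephb2 stop short of it.
Efnb1: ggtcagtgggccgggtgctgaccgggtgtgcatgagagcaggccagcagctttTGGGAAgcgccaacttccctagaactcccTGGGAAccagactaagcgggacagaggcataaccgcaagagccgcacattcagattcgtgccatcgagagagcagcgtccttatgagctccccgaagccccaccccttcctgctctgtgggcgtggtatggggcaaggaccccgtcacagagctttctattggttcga
Efnb2: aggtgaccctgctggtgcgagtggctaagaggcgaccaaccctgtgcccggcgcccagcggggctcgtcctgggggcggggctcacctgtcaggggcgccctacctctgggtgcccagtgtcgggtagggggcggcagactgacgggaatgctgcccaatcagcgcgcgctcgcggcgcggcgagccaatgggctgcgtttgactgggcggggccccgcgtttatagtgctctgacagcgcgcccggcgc
Ephb3: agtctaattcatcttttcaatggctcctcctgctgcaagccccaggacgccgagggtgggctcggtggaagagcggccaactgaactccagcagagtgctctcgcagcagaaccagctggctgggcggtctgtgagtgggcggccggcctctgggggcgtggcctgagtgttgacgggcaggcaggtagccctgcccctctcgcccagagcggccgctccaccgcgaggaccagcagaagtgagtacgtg
Ephb4: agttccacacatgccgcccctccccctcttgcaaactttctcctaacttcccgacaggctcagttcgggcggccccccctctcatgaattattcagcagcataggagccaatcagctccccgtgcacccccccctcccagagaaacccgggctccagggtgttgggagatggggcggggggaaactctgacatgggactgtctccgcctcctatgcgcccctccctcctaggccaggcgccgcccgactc
RefSeq promoters matched 7 of the 8 members, all but Efnb3. Searched on both strands, the letters TGGGAA were found in the Efnb1 window, where they occur 2 times, 197 and 168 bases before the start, and in none of the other 6. Of all 32851 promoter windows of this length, 21.6% hold these letters. CATCTG, an E-box of the kind TWIST1 binds, is in 14.4% of all windows and GTCTNGAC, a paired SMAD site, in 1.47%. Neither was in the window of a member. The shorter GTCTG, which the study's text names as the SMAD3 binding element, was not searched for. A match describes letters only, and a window without one says nothing about the factor. The GC content of the 4 windows shown was 60% for Efnb1, 72% for Efnb2, 65.6% for Ephb3 and 64% for Ephb4, above the median of 52.4% over all windows.

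Genes that act with the family were described through 3 lists from general knowledge. Of 21 partners of EphB forward signaling, adapters, Src-family kinases and exchange factors among them, 18 were tested, of which 6 rose and 7 fell (median log2 fold change 0.08). These are 33.3% and 38.9% of the list, beside 27.4% higher and 27.7% lower among all tested genes. Tiam1, a Rac exchange factor that EphB2 recruits in dendritic spines, went from 29.2 ± 2.08 to 6.74 ± 0.581 CPM (SD, n = 3) and fell by 2.11 on the log2 scale (SE 0.10, adjusted p = 2.03e-08, edgeR). Kalrn, an exchange factor that acts with it there, fell by 1.51 on the log2 scale (SE 0.17, adjusted p = 1.73e-05). The largest rises among those with at least 5 CPM were small, 0.49 for the kinase Yes1 (adjusted p = 0.0143) and 0.48 for the adapter Shc1 (adjusted p = 4.08e-05). Without JAG1-overexpressing replicate 2 the number of risen genes of this list was 3, and Yes1 had an adjusted p of 0.0580.

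Of 15 partners of ephrin-B reverse signaling, 12 were tested, of which 3 rose and 4 fell (median −0.11), or 25% and 33.3%, near the 27.4% and 27.7% of all tested genes. Nck2, the adapter also called Grb4 that binds the phosphorylated tail of ephrin-B, went from 13.6 ± 1.78 to 5.59 ± 0.602 CPM (SD, n = 3) and fell by 1.28 on the log2 scale (SE 0.13, adjusted p = 1.10e-05, edgeR). Pdzrn3, a PDZ protein, had a log2 fold change of −0.97 (adjusted p = 1.81e-06). Stat3 rose by 0.88 (adjusted p = 2.92e-06) and Smurf2, a ubiquitin ligase, by 0.62 (adjusted p = 9.41e-05) on the same scale.

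Of 11 proteases and γ-secretase subunits listed for the cutting of EphB or ephrin-B proteins, 8 were tested, of which 3 rose and 2 fell (median 0.13), or 37.5% and 25% beside 27.4% and 27.7% of all tested genes. Adam9 rose by 1.79 on the log2 scale (SE 0.47, adjusted p = 0.00761), from 2.22, 11.2 and 20.6 CPM in control to 27.6, 48.9 and 40.9 CPM in JAG1-overexpressing libraries. The groups did not overlap, but the control libraries differed widely. With DESeq2 the log2 fold change of Adam9 was also 1.79 but its adjusted p was 0.0588, and 2 genes of the list rose. With edgeR it was 2.56 without control replicate 3 and 1.28 without control replicate 1. Adam10, the main sheddase of the family, rose by 0.35 on the log2 scale (adjusted p = 0.00353). Mmp2 and Mmp9, named after their values were seen, were the genes of this list that fell: Mmp2 had 66, 90 and 81 reads in control and 10, 10 and 7 in JAG1-overexpressing libraries (adjusted p = 4.47e-06), and Mmp9 57, 56 and 58 against 2, 0 and 1 (adjusted p = 1.17e-06).

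**Figure D4:**
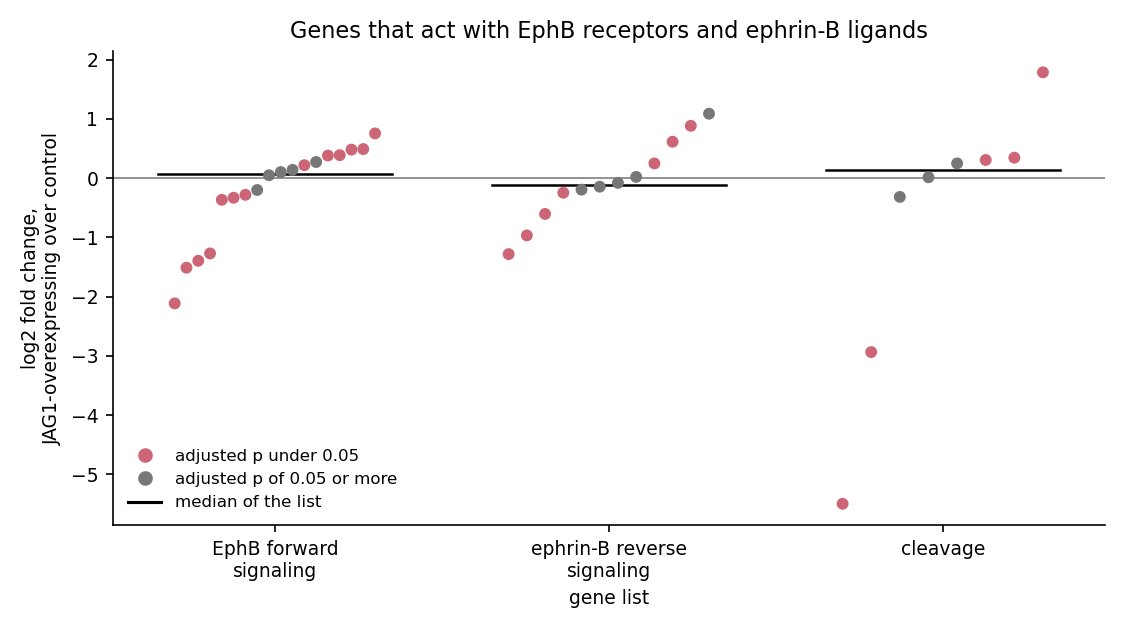
Log2 fold change of each tested gene in the 3 lists of genes that act with the family, red where the adjusted p was under 0.05, with a line at the median of each list. Points lie on both sides of 0 in each list, and the lowest is Mmp9 in the list of cleavage, which had at most 2 reads in any JAG1-overexpressing library.

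In the A class of the same family, which has 14 genes, 8 were tested, and 7 of them fell and none rose, beside 27.7% of all tested genes lower (median −1.51). Epha2 was not called, with 25.4 ± 13.4 CPM in control and 40.0 ± 8.25 CPM in JAG1-overexpressing libraries (SD, n = 3). Its log2 fold change was 0.65 (adjusted p = 0.0993, edgeR), and the groups overlapped. Epha4, a receptor that also binds ephrin-B ligands, went from 18.0 ± 1.38 to 2.85 ± 0.957 CPM (SD, n = 3) and fell by 2.62 on the log2 scale (SE 0.18, adjusted p = 3.24e-07, edgeR), a larger fall than that of any EphB receptor, though the difference was not tested. Efna5, an ephrin-A that also binds EphB2, fell less, with a log2 fold change of −0.40 (adjusted p = 0.00128), from 33.0 ± 0.876 to 24.9 ± 1.85 CPM (SD, n = 3). Efna1 had a log2 fold change of −1.09 (adjusted p = 2.54e-05).

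The members lie on 8 different chromosomes, whose tested genes had median log2 fold changes between −0.03 and 0.03. None lies on chromosome 15 or 19, where the medians of tested genes were −0.54 and 0.60. A median over a whole chromosome does not describe its parts, and the cause of these medians was not tested. Of the list genes tested, Sdc2 and Pick1 lie on chromosome 15 and 0 on chromosome 19.

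For Ephb6, which had the largest estimated change in the fit of all libraries though not apart from Efnb1, the tested genes with the most similar pattern over the 6 libraries were Ly6e, Aifm2 and Bcl2l15, each with a Pearson correlation of 0.998 of log2 CPM. The correlation is a description, as 226 tested genes had one over 0.99 and most of it is the difference between the groups. Size did not follow the pattern, since Bcl2l15 had a log2 fold change of −3.81 and Aifm2 one of −0.47. Ly6e, at −1.26, lies on chromosome 15, where the median of tested genes was −0.54.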

How the data were processed

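The study prepared 3' end RNA libraries (QuantSeq) from control and JAG1-overexpressing Ink4a -/- murine astrocytes. The authors deposited, for each of 6 libraries, raw read counts per gene symbol and log2-transformed normalized counts, whose method is not given in the sources used here. The submitters' processing notes name Bowtie2, bedtools and edgeR and the builds GRCm38 and mm10, with no roles. Raw counts were used, and the log2 values only as an alternative.

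Analysis was run in R 4.3.3. With edgeR 4.0.16, filterByExpr (minimum count 10) left 11712 genes, TMM normalization was applied, the groups were compared by the quasi-likelihood test, and Benjamini-Hochberg adjustment ran over all tested genes (threshold 0.05). Standard errors came from the F statistic. DESeq2 1.42.0 and limma 3.58.1 served as alternatives. Where a symbol had several rows, the row with the most reads was used. Gene positions came from GENCODE M21 and promoters and chromosomes from RefSeq (GRCm38.p6). On simulated counts with 195 changed genes among 11576, 94.8% of those changed by 2-fold were recovered, and 5.47% of calls were on unchanged genes. In the measured libraries, 3211 tested genes were called higher and 3247 lower. Whether that recovery and that share of wrong calls hold there was not tested. No pair of libraries was a copy: the chi-square per degree of freedom was at least 3.76. It ran from 3.76 to 5.17 between JAG1-overexpressing libraries and from 5.45 to 16.1 between control libraries, highest for replicates 1 and 3.

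Members, lists and tests were chosen with earlier results of these data known. Besides all members, the text names, per list, up to 2 called genes with the largest rise and up to 2 with the largest fall at a mean of at least 5 CPM, Jag1, Epha4 and Efna5, and the 3 genes most like the member that changed most. Genes named after their values were seen are Mmp2, Mmp9, Epha2, Zan and those named for their chromosome. An exact permutation test of 3 against 3 libraries cannot go below 0.1 and was not used. Part of the gene lists drawn up for this work is not reported here, and the counts of the cleavage list leave out what is not reported.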

Additional observations from a re-analysis of the deposited data

How the results depend on the processing

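The falls of Ephb2, Ephb3, Ephb6 and Efnb1 kept their direction and stayed past the threshold under all 14 alternatives, with log2 fold changes from −1.41 to −1.30, −1.95 to −1.74, −2.25 to −2.04 and −2.12 to −1.98. With 1 library left out at a time, Ephb4 ran from −0.74 to −0.17, Efnb2 from −0.23 to 0.12, the forward signaling genes that rose from 3 to 6, and the EphA and ephrin-A genes that rose from 0 to 1. The EphA and ephrin-A genes that fell numbered 6 or 7 in these fits, and 6 with DESeq2 and with the authors' log2 values. Efnb2 turned to 0.12 without control replicate 3, and no alternative called it. Ephb4 passed the threshold without a filter on low counts (−0.45, adjusted p = 0.00794). Without a filter 1 gene of the A class rose. With a fold limit of 1.5, 1395 of all genes rose and 1711 fell, 1 and 4 of the forward signaling list, and 1 of the cleavage list rose. The causes were not tested. With DESeq2, Adam9 had an adjusted p of 0.0588.

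Libraries share replicate numbers across groups, and deviations of same-numbered libraries correlated at 0.15, 0.06 and 0.12. The numbers were not taken as pairs, although every library correlated best with its own number. Correlations this low cannot exclude that the libraries were paired. With the replicate number as a block, 3380 genes rose and 3331 fell, and 1 gene of the A class rose. The 4 members that fell were still called (Ephb3 −1.84, adjusted p = 1.82e-10, edgeR). Ephb4 was still not called (−0.37, adjusted p = 0.0621, edgeR).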
